A study of Arabidopsis thaliana with 24 samples.

Results

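The auxin receptor genes TIR1, AFB1, AFB2 and AFB3 were followed through small RNA sequencing of Arabidopsis thaliana inflorescences. They were chosen by locus, as AT3G62980, AT4G03190, AT3G26810 and AT1G12820, and all 4 occur among the 14888 loci of the authors' deposited table, in 18 of its 28194 entries. Each entry compares 1 of 13 mutant lines with a reference line. The labels name 24 libraries in 8 groups of 3 biological replicates. The triple mutants are rrp4-2/urt1-1/dcl2CRISPR and rrp4-2/urt1-1/heso1-4, the double mutant is heso1-4/urt1-1, the single mutants are rrp4-2, ski2-5, heso1-4 and urt1-1, and Col-0 is the wild type. All share the Col-0 background, and the plants were raised on plates and then soil before inflorescences were taken.

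URT1 and HESO1 are terminal nucleotidyl transferases that add nucleotides, mainly uridine, to RNA 3′ ends. RRP4 is a core subunit of the RNA exosome, which degrades RNA from that end, and SKI2 is a helicase that serves the exosome in the cytoplasm. DCL2 is a Dicer that makes 22-nt siRNAs. The table names no reference line, and Col-0, the only labelled genotype absent from its mutants, is taken to be it. By name alone 5 of the 13 lines match a label, namely rrp4-2/urt1-1/heso1-4, heso1-4/urt1-1, rrp4-2, ski2-5 and urt1-1. The table writes them, in that order, as rrp4urt1heso1, heso1urt1, rrp4, ski2.5 and urt1.1. The first 3 names carry no allele number, so their alleles are taken from the labels. The submitters' design text writes the heso1 allele of the double mutant differently from the sample labels, so that allele is uncertain. Either of rrp4urt1dcl2.B9 and rrp4urt1dcl2het could, by its name, be the labelled group with dcl2CRISPR, and this was not settled. Whether the ending het marks a heterozygous dcl2 mutation was not settled either. The lines urt1.2, ski2urt1dcl2.107, ski2urt1dcl2.123, GKheso1, heso1.3 and ski2.2 are known only by their names in the table. In all, 8 lines carry a urt1 mutation and 5 do not.

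TIR1 and the AFB proteins are F-box subunits of SCF ubiquitin ligases. When they bind auxin they take up Aux/IAA repressor proteins, which are then degraded, and the ARF transcription factors that those repressors hold back are released. The microRNA miR393 guides cleavage of the receptor mRNAs. It is a 22-nt microRNA, and cleavage by microRNAs of that length is known to start secondary siRNAs from a target, which in Arabidopsis occurs at receptor mRNAs. The values used here are small RNA counts at a locus, not mRNA levels, and they hold no read lengths, so secondary siRNAs cannot be told apart from other small RNAs.

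The sequence of miR393 is shown first because its target site is what these genes share. In the TAIR10.1 genome and annotation of RefSeq, MIR393a gives miR393a-5p from chromosome 2, 16652111 to 16652132, and MIR393b gives miR393b-5p from chromosome 3, 20691657 to 20691678, both on the plus strand. Capitals mark bases 2 to 8, the seed, and the 2 mature sequences are the same.
miR393a-5p: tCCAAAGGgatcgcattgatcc
miR393b-5p: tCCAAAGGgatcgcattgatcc

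The best ungapped match to miR393-5p in each receptor transcript follows, 5′ to 3′ on the mRNA strand in DNA letters. Capitals mark the bases that do not form a Watson-Crick pair with the microRNA. The site of bHLH77 (AT3G23690), a basic helix-loop-helix gene and the other known target of miR393, stands last for comparison.
TIR1: gAGAcaatgcgatccctttgga
AFB1: gAGAcCatgcgatccctttgga
AFB2: gAaAcaatgcgatccctttgga
AFB3: gAaAcaatgcgatccctttgga
bHLH77: ggGtcaGAgcgatccctttggC

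The sites of AFB2 and AFB3 were the same 22 letters, with 20 paired bases each. TIR1 had 19 paired bases and 1 G:U pair. AFB1 had 18 paired bases and 1 G:U pair, the fewest of the receptors. bHLH77 had 18 paired bases and 2 G:U pairs. Of its capital letters, only the G at base 3 is shared with TIR1 and AFB1, and none is shared with AFB2 and AFB3. No site had an unpaired base opposite the seed of the microRNA. With a penalty of 1 for a mismatch and 0.5 for a G:U pair, AFB2 and AFB3 scored 2, TIR1 2.5, bHLH77 3 and AFB1 3.5. Of 31340 annotated genes with an mRNA model, 1 transcript each, 5 scored 3.5 or less (0.016%), and these were the 4 receptors and bHLH77. The more distant receptor genes AFB4 and AFB5 had no better match than a penalty of 6.5 and 7. A match is a description of letters and was not tested here as a cleavage site.

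All 4 receptor sites lie in the last exon and in coding sequence. The AFB2 site is on the plus strand of chromosome 3, 9870237 to 9870258, in exon 3 of 3. The AFB3 site is on the minus strand of chromosome 1, 4369085 to 4369106, in exon 4 of 4. The TIR1 site is on the minus strand of chromosome 3, 23273727 to 23273748, in exon 3 of 3. The AFB1 site is on the minus strand of chromosome 4, 1405341 to 1405362, in exon 3 of 3. In the spliced transcript they begin at 74.2% of the length in TIR1, 79.6% in AFB1, 80.1% in AFB2 and 84.5% in AFB3. The bHLH77 site lies in exon 1 of 7, on the minus strand of chromosome 3, 8530587 to 8530608, at 35.0% of the transcript. Between the site and the transcript end there are 662 bases in TIR1, 454 in AFB1, 524 in AFB2, 325 in AFB3 and 1371 in bHLH77.

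**Figure D1:**
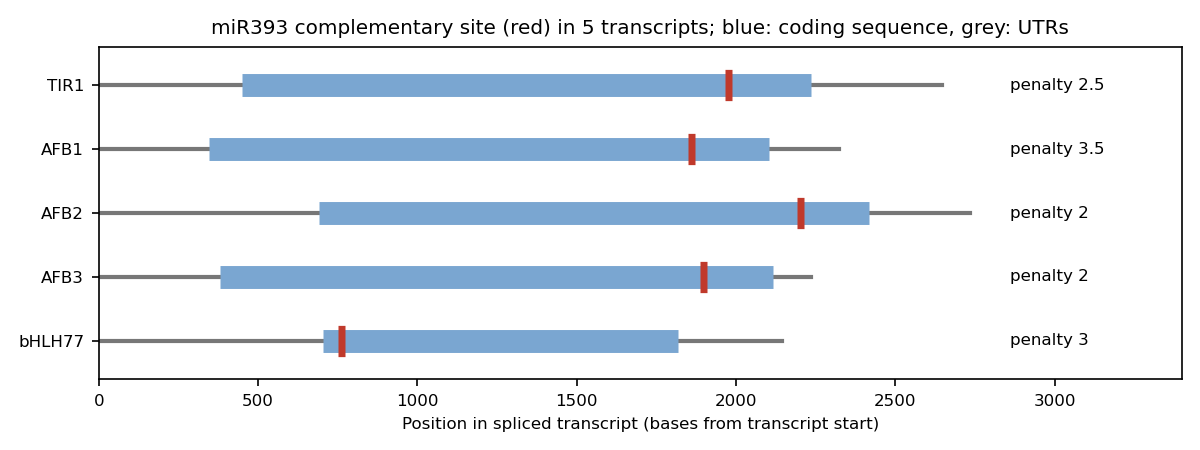
Position of the best miR393 match (red) in the spliced RefSeq transcripts of the 4 receptor genes and bHLH77, in bases from the transcript start; blue is coding sequence, grey is untranslated. The receptor sites begin between 74.2% and 84.5% of the transcript and the bHLH77 site at 35.0%; penalties run from 2 in AFB2 and AFB3 to 3.5 in AFB1.

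Among the receptors, AFB3 had the highest mean small RNA count over all libraries. The authors' deposited table gives a mean normalised count per locus, 1 value over all libraries of a fit, with no spread. It was 327.5 for AFB3, 186.9 for AFB2, 146 for TIR1 and 86.6 for AFB1 in the authors' deposited table. Per kilobase of spliced transcript this level was 147 for AFB3, 68.3 for AFB2, 55.1 for TIR1 and 37.3 for AFB1, and 178 for bHLH77. The mean takes in the mutant lines, among them those in which AFB2 and AFB3 rose, as given below. The order of the genes in the reference alone is therefore not known. With no spread given, the order of these levels is a description.

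Part of this level could not be assigned to 1 gene. A long noncoding RNA gene, AT1G04977 (chromosome 1, 4368980 to 4369617, plus strand), lies on the strand opposite AFB3, with all 638 of its bases inside AFB3 exons, and it spans the miR393 site. Its mean normalised count was 202 in the authors' deposited table, or 317 per kilobase of gene. Another such gene, AT4G04455 (chromosome 4, 1405104 to 1405526, plus strand), lies with all 423 bases inside AFB1 exons, also across the miR393 site, and had a mean normalised count of 42.8 in the authors' deposited table. Whether the authors counted reads by strand is not given in the sources used here, so reads of AFB3 or AFB1 and of these genes cannot be told apart. No annotated gene overlaps AFB2, TIR1 or bHLH77. AFB3 and AFB1 also overlap the ends of the protein-coding genes AT1G12810 and AT4G03180, by 63 and 51 bases, and neither of these is in the table.

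The receptors share little sequence of the length of a small RNA. The coding sequences of AFB2 and AFB3 were 81.9% identical and those of TIR1 and AFB1 68.6%, while the other pairs were 60.4% to 61.5% identical. Of all windows of 21 bases, AFB2 and AFB3 shared 34, AFB2 and TIR1 6, and AFB3 and TIR1 3, while AFB1 shared none with the others. Windows found in any other mRNA model, on either strand, made up 2.85% of the AFB3 transcript, 1.69% of AFB2, 1.48% of AFB1 and 0.875% of TIR1. How the authors placed reads with more than 1 match is not given in the sources used here.

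Small RNAs of AFB2 and AFB3 rose in every line with a urt1 mutation and were listed in none of the 5 lines without one. In urt1-1, AFB2 was 2.74 times as high as in the reference (95% interval 2.22 to 3.38) and AFB3 2.66 times (2.19 to 3.22). TIR1 and AFB1, which carry a miR393 site too, were each listed in 1 line, TIR1 as higher and AFB1 as lower. Of the 18 receptor entries 17 were higher and 1 was lower. A gene counts as higher or lower where the authors' DESeq2 adjusted p is under 0.05, and the table holds only such entries and not all of them.

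The log2 fold changes of AFB2 in the authors' deposited table, each line against the reference, were 1.25 in ski2urt1dcl2.123, 1.33 in ski2urt1dcl2.107, 0.73 in rrp4urt1dcl2het, 1.27 in rrp4urt1dcl2.B9, 0.78 in rrp4-2/urt1-1/heso1-4, 1.12 in heso1-4/urt1-1, 1.38 in urt1.2 and 1.46 in urt1-1. The median was 1.26, a fold of 2.396, and the standard errors recovered from the p-values were 0.155 to 0.173. AFB2 was highest in the urt1 single mutants and lowest in rrp4urt1dcl2het and rrp4-2/urt1-1/heso1-4, where the folds were 1.66 and 1.71. The adjusted p of the authors' DESeq2 fit for AFB2 ran from 2.88e-17 in urt1-1 to 6.79e-05 in rrp4urt1dcl2het.

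AFB3 followed the same order at its low end. Its log2 fold changes in the authors' deposited table were 1.297 in ski2urt1dcl2.123, 1.44 in ski2urt1dcl2.107, 0.51 in rrp4urt1dcl2het, 1.14 in rrp4urt1dcl2.B9, 0.68 in rrp4-2/urt1-1/heso1-4, 1.08 in heso1-4/urt1-1, 1.297 in urt1.2 and 1.41 in urt1-1. The median was 1.22, a fold of 2.33, with standard errors of 0.142 to 0.158. The lowest value, in rrp4urt1dcl2het, was a fold of 1.43 (95% interval 1.17 to 1.74, DESeq2 adjusted p of the authors 0.00375). The antisense locus AT1G04977 had values near those of AFB3, with standard errors of 0.178 to 0.198. Its log2 fold changes were 1.31 in ski2urt1dcl2.123, 1.48 in ski2urt1dcl2.107, 1.06 in rrp4urt1dcl2.B9, 0.50 in rrp4-2/urt1-1/heso1-4, 0.94 in heso1-4/urt1-1, 1.19 in urt1.2 and 1.37 in urt1-1 in the authors' deposited table; it was not listed in rrp4urt1dcl2het or in a line without urt1.

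**Figure D2:**
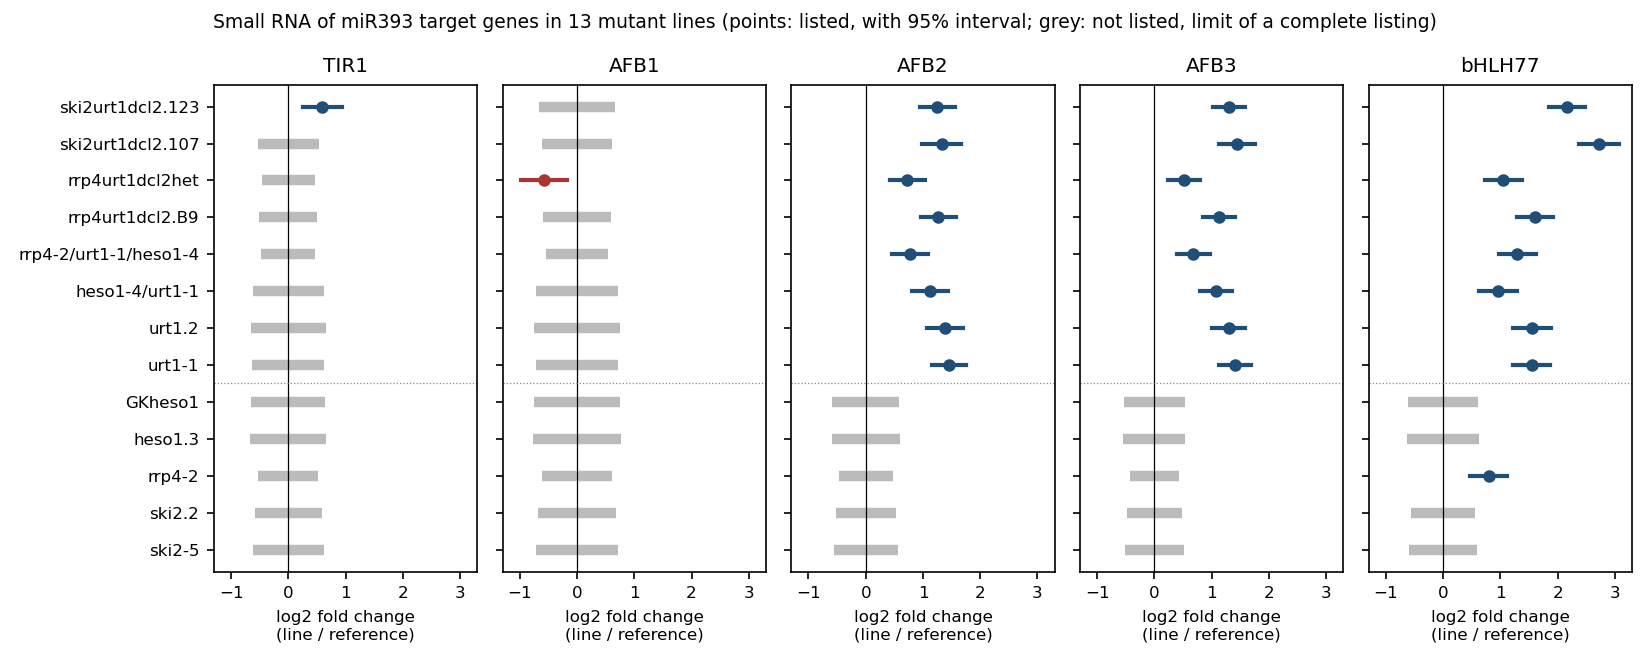
Log2 fold change of small RNA, line over reference, for the 4 receptor genes and bHLH77 in 13 mutant lines; points are listed values with 95% intervals, blue higher and red lower, and grey bars mark the limit below which an unlisted value would lie if the listing were complete. AFB2 and AFB3 have a point in all 8 lines above the dotted line, which carry urt1, and none in the 5 lines below it.

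AFB2 and AFB3 moved by nearly the same amount in each line. The difference of AFB2 minus AFB3 lay between -0.11 and 0.22, with AFB2 larger in 6 lines and AFB3 in 2, and the 95% interval held 0 in all 8. The outermost bounds of these intervals were -0.57 and 0.63, so differences up to that size lie within them.

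How far these 2 genes stood out depended on the line. By p-value AFB3 and AFB2 ranked 10 and 13 among all loci tested in urt1-1, and 3 and 5 among the 292 listed; 2 of 4 receptors were listed as higher, against 0.32% of all tested loci. These shares, here and in the other lines, count only listed loci and are lower bounds on the share that passed, since the table lists 56.8% of the ranks up to the last one past the threshold in urt1-1 and as little as 50.9% in another line. In urt1.2 they ranked 10 and 12 among all tested loci, and 4 and 6 among the 174 listed, and 2 of 4 stood against 0.148% of loci. In heso1-4/urt1-1, 2 of 4 stood against 0.34%. In ski2urt1dcl2.107, 2 of 4 stood against 1.7%, and in ski2urt1dcl2.123, 3 of 4 with TIR1 stood against 0.861%. The rrp4 lines had many more loci called, so the same count says less there. In rrp4-2/urt1-1/heso1-4, 2 of 4 stood against 6.4%, in rrp4urt1dcl2.B9 against 5.13% and in rrp4urt1dcl2het against 9.65%. The median log2 fold change of all listed loci in the authors' deposited table was 0.74 in rrp4urt1dcl2het, 0.65 in rrp4-2/urt1-1/heso1-4 and 0.83 in urt1-1. It takes higher and lower loci together and so does not give the size of a usual rise. By size of rise, AFB2 and AFB3 ranked 4560 and 5695 among the 6136 loci listed as higher in rrp4urt1dcl2het. They ranked 3448 and 3692 among 4202 in rrp4-2/urt1-1/heso1-4, and 66 and 68 among 217 in urt1-1.

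The 5 lines without urt1 listed 0 of the 4 receptors. Of all tested loci, those listed as higher made up 3.45% in rrp4-2, 0.99% in ski2.2, 0.252% in ski2-5, 0.125% in GKheso1 and 0.082% in heso1.3, and 0 of 4 is near these shares. Were the listing complete, an unlisted AFB2 would have changed by less than 0.47 in rrp4-2 and by less than 0.59 in heso1.3 on the log2 scale, the narrowest and widest limits, and AFB3 by less than 0.43 and 0.54. These limits use standard errors from the lines with urt1, and those in the lines without it are not known. The table lists 50.9% to 82.8% of the loci that passed in a line, so an unlisted gene is not shown to be unchanged. For the same reason the difference between lines with and without urt1 was not tested for these genes. Unadjusted p-values of unlisted genes were not used here.

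TIR1, the founding member of the receptor family, passed in ski2urt1dcl2.123 alone. Its log2 fold change there was 0.59 ± 0.176 (SE) in the authors' deposited table, a fold of 1.51 (95% interval 1.19 to 1.92, DESeq2 adjusted p of the authors 0.0353). In the 7 other lines with urt1 the limit of a complete listing was 0.46 to 0.65, by the standard error in ski2urt1dcl2.123 alone. With that standard error, a rise of TIR1 as large as that of AFB2 or AFB3 in urt1-1 would have passed in those lines. A locus that passed can still be missing from the table. The difference between TIR1 and AFB2 within urt1-1 was not tested, since TIR1 has no value in it.

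AFB1, which among the receptors had the fewest paired bases in its site, was listed in rrp4urt1dcl2het alone and was lower. Its log2 fold change was -0.58 ± 0.203 (SE) in the authors' deposited table, a fold of 0.671 (95% interval 0.509 to 0.883, DESeq2 adjusted p of the authors 0.0301), in a line where 4.54% of all loci were lower. The antisense locus AT4G04455 was at -0.80 ± 0.268 (SE) in the same line in the authors' deposited table, and the 2 genes cannot be told apart. MIR393b and AFB5 were lower in this line as well, and their part in the AFB1 value was not tested.

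Whether the rise of AFB2 and AFB3 differed between lines with urt1 was tested through the difference of log2 fold changes. A difference from urt1-1 holds the whole effect of the other mutations of a line. Whether those mutations change the effect of urt1 could not be tested, since AFB2 and AFB3 have no value in lines without urt1. Both genes were lower in rrp4urt1dcl2het and in rrp4-2/urt1-1/heso1-4 than in urt1-1, while no other line passed the test against urt1-1. Each difference was given a two-sided z test, adjusted by Benjamini-Hochberg over all loci listed in both lines. Over 11 pairs of lines with a value for these genes, 22 differences were compared; 5 passed, and 8 had an unadjusted p under 0.05. All lines are taken to share the reference libraries.

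In rrp4urt1dcl2het minus urt1-1, AFB3 differed by -0.90 ± 0.202 (SE, z test, adjusted p 6.86e-05) and AFB2 by -0.73 ± 0.221 (adjusted p 0.00543). In rrp4-2/urt1-1/heso1-4 minus urt1-1, AFB3 differed by -0.73 ± 0.204 (adjusted p 0.00141) and AFB2 by -0.68 ± 0.225 (adjusted p 0.00926). Of all loci listed in both lines, 24.6% differed in the first pair and 29.8% in the second. bHLH77 was at -0.50 and -0.25 in these pairs and passed in neither, but with a correlation of 0.5 between lines, to allow for their common reference, it passed in the first (adjusted p 0.00803). In both lines the rise over the reference was still past the threshold for both receptors.

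The other rrp4 line, rrp4urt1dcl2.B9, stood nearer to urt1-1. Its difference from urt1-1 was -0.18 (95% interval -0.62 to 0.25) for AFB2 and -0.27 (-0.67 to 0.12) for AFB3, in a pair where 10.8% of shared loci differed. Between the 2 lines named for the same mutations, rrp4urt1dcl2het minus rrp4urt1dcl2.B9, AFB3 differed by -0.62 ± 0.202 (SE, z test, adjusted p 0.0349) and AFB2 by -0.54 (adjusted p 0.164), where 6.41% of shared loci differed. With the correlation of 0.5 AFB2 passed too (adjusted p 0.00616). bHLH77 was at -0.55 in this pair without passing (adjusted p 0.188), and it also passed with the correlation of 0.5 (adjusted p 0.00832). Against rrp4-2/urt1-1/heso1-4, rrp4urt1dcl2.B9 was higher by 0.49 for AFB2 and 0.46 for AFB3 without passing (adjusted p 0.232 and 0.218, and 0.0157 and 0.0138 with that correlation), where 9.64% of shared loci differed. rrp4urt1dcl2het minus rrp4-2/urt1-1/heso1-4 gave -0.05 for AFB2 and -0.17 for AFB3, neither of which passed, where 11.4% of shared loci differed.

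The lines with a ski2 mutation were not shown to differ from urt1-1 in either receptor. In ski2urt1dcl2.107 minus urt1-1, AFB2 differed by -0.12 (95% interval -0.58 to 0.33) and AFB3 by 0.03 (-0.38 to 0.45). In ski2urt1dcl2.123 minus urt1-1, AFB2 differed by -0.20 (-0.64 to 0.23) and AFB3 by -0.11 (-0.51 to 0.28). bHLH77 rose further in both, by 1.17 ± 0.244 (SE, z test, adjusted p 5.32e-06) in ski2urt1dcl2.107 and by 0.61 ± 0.232 (adjusted p 0.0315) in ski2urt1dcl2.123, where 31.2% and 26.8% of shared loci differed. These 2 lines were not shown to differ from each other. The differences were -0.08 for AFB2 and -0.14 for AFB3 in ski2urt1dcl2.123 minus ski2urt1dcl2.107, with 0.495% of shared loci past the threshold.

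The second urt1 allele gave values near those of the first. In urt1.2 minus urt1-1, AFB2 differed by -0.07 (95% interval -0.51 to 0.36) and AFB3 by -0.11 (-0.51 to 0.28), and 0 of 81 shared loci passed the z test. For heso1-4/urt1-1 minus urt1-1 the intervals were -0.77 to 0.10 for AFB2 and -0.73 to 0.06 for AFB3, in a pair where 3.15% of shared loci differed. A response smaller than in urt1-1 by as much as these lower bounds thus lies within the intervals. bHLH77 was at -0.59 in heso1-4/urt1-1 minus urt1-1 without passing (z test, adjusted p 0.147). With a correlation of 0.5 between lines bHLH77 passed (adjusted p 0.00455), while AFB2 and AFB3 did not (adjusted p 0.175 and 0.126).

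**Figure D3:**
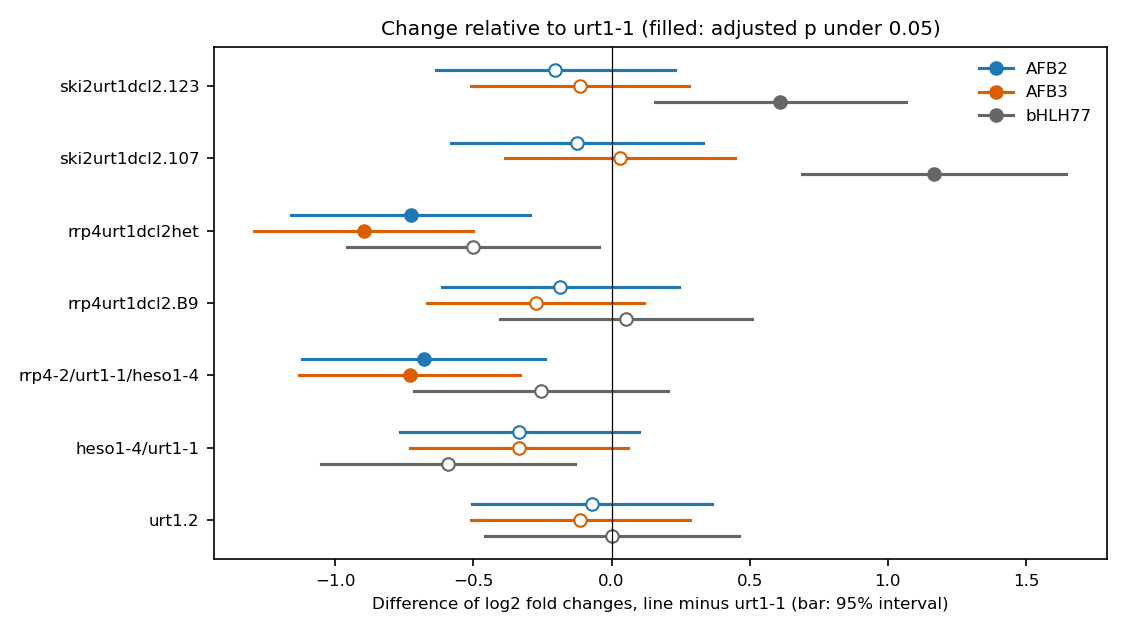
Difference of log2 fold changes, each line minus urt1-1, for AFB2, AFB3 and bHLH77; bars are 95% intervals and filled points have an adjusted p under 0.05. AFB2 and AFB3 are filled and lower in rrp4urt1dcl2het (-0.73 and -0.90) and rrp4-2/urt1-1/heso1-4 (-0.68 and -0.73), while bHLH77 is filled and higher in ski2urt1dcl2.107 and ski2urt1dcl2.123.

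bHLH77, the target outside the receptor family, was the one miR393 target listed in a line without urt1. Its log2 fold changes in the authors' deposited table were 2.16 in ski2urt1dcl2.123, 2.72 in ski2urt1dcl2.107, 1.05 in rrp4urt1dcl2het, 1.61 in rrp4urt1dcl2.B9, 1.299 in rrp4-2/urt1-1/heso1-4, 0.96 in heso1-4/urt1-1, 1.56 in urt1.2, 1.55 in urt1-1 and 0.80 ± 0.166 (SE) in rrp4-2. It was higher in rrp4urt1dcl2.B9 than in rrp4-2 by 0.81 (z test, adjusted p 0.0207), while rrp4-2/urt1-1/heso1-4 and rrp4urt1dcl2het were not shown to differ from rrp4-2 (0.50 and 0.25, adjusted p 0.156 and 0.835). With a correlation of 0.5 between lines rrp4-2/urt1-1/heso1-4 passed too (adjusted p 0.0124). Of all loci shared with rrp4-2, 3.1% differed in rrp4urt1dcl2.B9, 18.9% in rrp4-2/urt1-1/heso1-4 and 5.11% in rrp4urt1dcl2het. AFB2 and AFB3 have no value in rrp4-2, so the same differences could not be formed for them.

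The microRNA loci and the rest of the receptor complex were seldom listed. MIR393b was at -1.18 ± 0.230 (SE, DESeq2 adjusted p of the authors 7.04e-06) in rrp4urt1dcl2het and at 0.92 ± 0.250 (adjusted p 0.00862) in ski2urt1dcl2.107 in the authors' deposited table, and MIR393a was not listed. The 2 lines with a MIR393b value held the lowest and the highest AFB3 value, while AFB2 was lowest in the first of them and highest in urt1-1; the part of the microRNA in the receptor values was not tested. Of AFB4 and AFB5, 1 was listed, AFB5 at -0.75 in rrp4urt1dcl2het in the authors' deposited table. Of 4 further SCF subunit genes 2 were listed. RBX1, the RING subunit, was higher at 0.84 in the rrp4-2/urt1-1/heso1-4 line and 0.74 in rrp4urt1dcl2.B9, and CUL1, the cullin scaffold, was at -0.66 in rrp4urt1dcl2het in the authors' deposited table. A gene counted here needed an entry in only 1 of 13 lines. The line with the AFB5, CUL1 and lower MIR393b entries had 4.54% of tested loci listed as lower. For the RBX1 entries the share listed as higher was 5.13% in rrp4urt1dcl2.B9 and 6.4% in the other line. It was 1.7% in ski2urt1dcl2.107, where MIR393b was higher.

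Genes downstream of the receptors were listed mainly in the lines with many listed loci. None of 29 Aux/IAA repressor genes, 23 ARF genes or 9 GH3 genes was listed in urt1-1 or urt1.2, where 0.431% and 0.249% of all tested loci were, so nothing about these genes is read from it. Loci listed as lower made up 0.728% of all tested loci in ski2urt1dcl2.123, 1.46% in ski2urt1dcl2.107, 5.08% in rrp4-2/urt1-1/heso1-4, 0.241% in heso1-4/urt1-1, 0.155% in GKheso1, 1.01% in rrp4-2 and 0.261% in ski2-5. Of the Aux/IAA genes 8 were listed in some line, in 10 higher and 7 lower entries. In rrp4urt1dcl2.B9 3 of 29 were higher, against 5.13% of all tested loci, and in rrp4-2 1 was higher, against 3.45%. In rrp4urt1dcl2het 4 were higher, against 9.65% of all tested loci, and 2 lower, against 4.54%; in rrp4-2/urt1-1/heso1-4 2 were higher, against 6.4%, and 1 lower, against 5.08%. IAA5 was lower in 4 lines, at -1.52 in ski2urt1dcl2.123, -1.55 in rrp4-2/urt1-1/heso1-4, -2.41 in heso1-4/urt1-1 and -2.04 in GKheso1 in the authors' deposited table. These IAA5 values rest on a low mean normalised count of 13.6, with standard errors of 0.439 to 0.554. In GKheso1 the DESeq2 adjusted p of the authors was 0.0493. In the authors' deposited table IAA18 was higher in 3 lines, at 0.95 in rrp4urt1dcl2het, 1.24 in rrp4urt1dcl2.B9 and 1.22 in rrp4-2/urt1-1/heso1-4. IAA30 was higher at 1.66 in rrp4urt1dcl2het and 1.89 in rrp4-2, and IAA9 was lower at -0.73 in rrp4urt1dcl2het, in the authors' deposited table.

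Of the ARF genes 16 were listed, in 25 higher entries and 1 lower, ARF19 at -1.11 in ski2urt1dcl2.107 in the authors' deposited table. Of 23 genes 8 were higher in rrp4urt1dcl2het, with a median of 0.55, where 9.65% of all tested loci were listed as higher. The count was 5 in rrp4urt1dcl2.B9 against 5.13% of loci, 7 in rrp4-2/urt1-1/heso1-4 against 6.4%, with a median of 0.71, and 3 in rrp4-2 against 3.45%. It was 1 in ski2.2 against 0.99% and 1 in ski2-5 against 0.252%. ARF10, a target of miR160, was at 1.31 ± 0.223 (SE) in rrp4-2, and ARF8, a target of miR167, at 0.84 ± 0.175 (SE) there in the authors' deposited table, while no receptor was listed in that line. ARF10 was also at 1.31 in ski2-5, 0.81 in ski2.2, 0.75 in rrp4urt1dcl2.B9 and 0.73 in rrp4urt1dcl2het in the authors' deposited table. ARF8 was also at 0.68 in rrp4urt1dcl2.B9 and 0.57 in rrp4-2/urt1-1/heso1-4 there. In the authors' deposited table ARF3, a target of TAS3 siRNAs, was at 0.90 and ARF7, an activator of auxin response, at 0.92 in rrp4-2/urt1-1/heso1-4. The 8 in rrp4urt1dcl2het include ARF12, ARF14, ARF15, ARF20, ARF21 and ARF22, near-identical copies whose reads may be shared, so their number is uncertain. GH3.2 and GH3.3, genes of auxin-conjugating enzymes, were lower in 6 lines, 4 of them with urt1. GH3.2 lay between -1.74 in rrp4-2/urt1-1/heso1-4 and -0.98 in rrp4-2, and GH3.3 between -1.61 in ski2urt1dcl2.107 and -0.81 in rrp4-2, in the authors' deposited table. The other listed gene of this family, GH3.10, was higher in the authors' deposited table, at 1.13 in rrp4-2/urt1-1/heso1-4.

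Auxin biosynthesis and transport genes gave few entries. YUC10, a flavin monooxygenase gene of auxin synthesis, was the one member of the auxin lists besides AFB2 and AFB3 that was listed in urt1-1, at 0.78 ± 0.163 (SE, DESeq2 adjusted p of the authors 0.000574) in the authors' deposited table. It was at -1.27 in ski2urt1dcl2.123 and -1.45 in ski2urt1dcl2.107, and higher at 1.41 in rrp4urt1dcl2het, 0.72 in rrp4urt1dcl2.B9, 0.82 in rrp4-2/urt1-1/heso1-4 and 0.58 in rrp4-2 in the authors' deposited table. YUC1 was at -1.06 in rrp4urt1dcl2het there, and the other 10 of 12 YUC and TAA1 genes were not listed. Of 12 PIN and AUX/LAX carrier genes 2 were listed. In the authors' deposited table the efflux carrier PIN7 was at -0.99 in ski2urt1dcl2.123 and -1.16 in rrp4urt1dcl2het, and the influx carrier AUX1 was at 0.68 in rrp4-2/urt1-1/heso1-4. Of 3 TAS3 loci, which make siRNAs against ARF genes, 2 were listed. TAS3c was lower in 4 lines of the authors' deposited table, at -1.04 in ski2urt1dcl2.123, -1.34 in ski2urt1dcl2.107, -0.75 in rrp4urt1dcl2het and -1.28 in rrp4-2/urt1-1/heso1-4, and TAS3 was at -0.43 in rrp4urt1dcl2het. Of all tested loci, 0.728%, 1.46%, 4.54% and 5.08% were listed as lower in these 4 lines, in that order. In rrp4-2/urt1-1/heso1-4, which lists AUX1, 6.4% were listed as higher.

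Targets of other microRNAs were set beside the receptors as the most like groups. The 5 TCP genes targeted by miR319, regulators of leaf growth, gave 30 entries, all higher, but none in urt1-1, urt1.2 or heso1-4/urt1-1. All 5 were listed in rrp4urt1dcl2het (median 3.35), rrp4urt1dcl2.B9 (2.91), rrp4-2/urt1-1/heso1-4 (3.42) and rrp4-2 (3.09). Loci listed as higher made up 9.65%, 5.13%, 6.4% and 3.45% of all tested loci in these lines, in that order. TCP genes and receptors were both listed in the ski2 lines with urt1, where 3 of 5 TCP genes were higher in ski2urt1dcl2.123 (median 1.16, against 0.861% of all tested loci) and 2 of 5 in ski2urt1dcl2.107 (median 1.26, against 1.7%). In the ski2 lines without urt1, which list no receptor, 2 of 5 were higher in ski2.2 (median 1.35, against 0.99%) and 3 of 5 in ski2-5 (median 1.301, against 0.252%). Of 3 HAM genes targeted by miR171, 2 were listed, HAM1 at 0.65 in rrp4urt1dcl2het, 0.81 in rrp4urt1dcl2.B9, 1.08 in ski2.2 and 0.92 in ski2-5 and HAM2 at 0.84 in ski2.2 in the authors' deposited table. A gene has no value where it is not listed, so the contrast between these groups and the receptors was not tested.

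**Figure D4:**
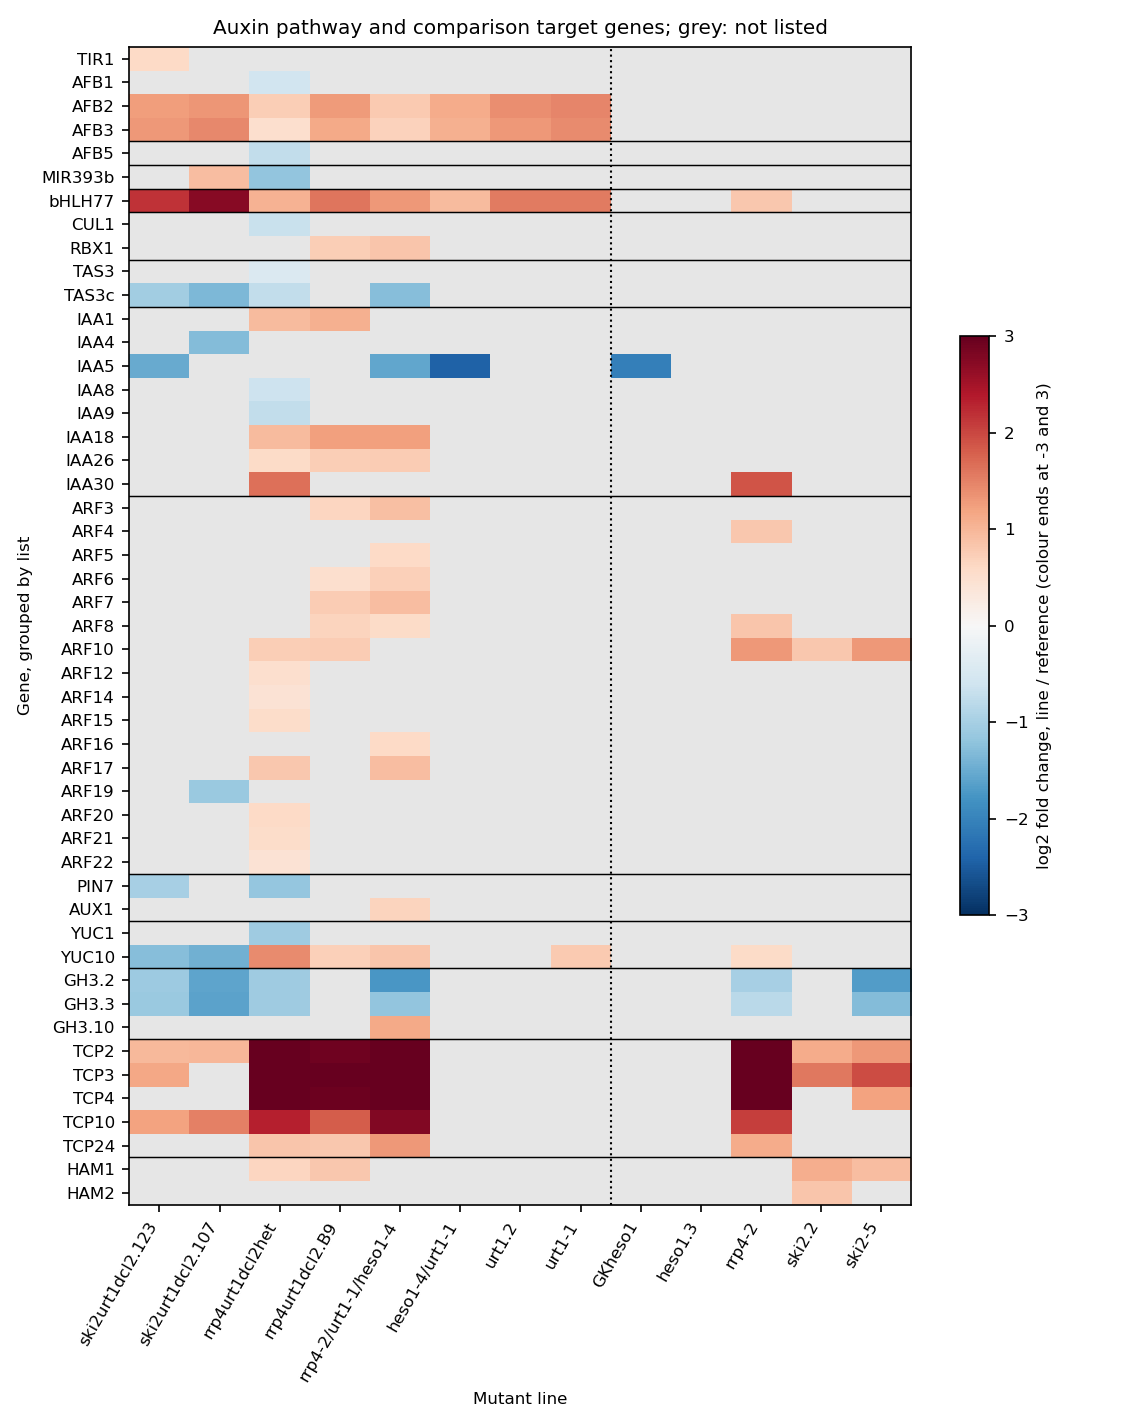
Log2 fold change, line over reference, of every listed gene of the auxin lists and of the TCP and HAM comparison lists in 13 mutant lines; red is higher, blue is lower, grey is not listed, and colour ends at -3 and 3. AFB2 and AFB3 are red in the 8 lines left of the dotted line, which carry urt1, and the TCP genes are darkest in the rrp4 lines.

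The loci with the pattern most like AFB2 and AFB3 came from several classes. Among the 25 other loci listed in all 8 lines with urt1, likeness was the root mean square difference of log2 fold change from the mean of the 2 genes over those lines. The nearest was the transposable element AT3TE43450 (0.269), at 0.75 to 1.54 in the authors' deposited table, which was also listed in 4 of the other 5 lines. AT2G21920, an F-box associated gene, followed (0.417), also listed in 4 of the others. EBF1, an F-box gene that targets the ethylene response factor EIN3 (0.42, with values of 0.57 to 1.68), and BRI1, the brassinosteroid receptor kinase gene (0.45, with 0.61 to 1.25 in the authors' deposited table), were listed in no other line. bHLH77 was next (0.645). Of the 14888 loci in the table, 27 were listed in all 8 lines with urt1, and 7 of these were listed in no other line. The table lists 50.9% to 82.8% of the loci that passed in a line. The 7 loci are therefore not shown to be unchanged in the lines without urt1. Of these, 5 were higher in all 8, namely AFB2, AFB3, EBF1, BRI1 and AT5G20700 (0.90 to 3.76). The transposable elements AT1TE71520 and AT1TE74970 were lower in all 8, and AT1TE71520 rests on a low mean normalised count of 8.25. All 8 values of a locus come from comparisons with the same reference.

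Of 6 genes that define flower tissue, AP1, AP3, PI, AG, SEP3 and LFY, 3 were listed. Of all tested loci, 4.54% were listed as lower in rrp4urt1dcl2het and 1.01% in rrp4-2. AP3, PI and LFY were at -0.78, -0.89 and -0.94 in rrp4urt1dcl2het, and PI was at -0.71 in rrp4-2, in the authors' deposited table. These are small RNA values and do not check the tissue, which rests on the labels. AFB1, AFB5 and MIR393b were also lower in rrp4urt1dcl2het; the part of tissue makeup in those values was not tested.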

How the data were processed

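Small RNA libraries from inflorescences were sequenced by the authors. The submitters' processing notes name DESeq2, STAR 2.6.0a, Subread 1.6.3 with featureCounts, cutadapt 2.4 and the TAIR10 build; order and parameters are not given in the sources used here. The authors' deposited table gives log2 fold changes with p-values and adjusted p-values and, as the signal, a mean normalised count per locus, per the file headers. It holds no values per library, so depth is unknown and directions cannot be counted over libraries. The members and lists were chosen with earlier results of these data known.

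Here, the size of each log2 fold change was divided by the normal quantile of its p-value to give its standard error, and dividing adjusted by unadjusted p gave the tested loci per line (32432 to 78096); both steps were tested on simulated data. Limits for unlisted genes are the gene's median standard error times the normal quantile of the largest p that the line lists. That median is over the lines that list the gene, which is 1 line for TIR1 and for AFB1. Of 15 pairs of lines compared by z test, 11 list a receptor in both. Target sites, shared windows and identity came from RefSeq TAIR10.1, 1 longest mRNA per gene. Genes of the auxin lists that were listed in a line with urt1 are named by smallest adjusted p, at most 4 a list. This rule left out ARF4, which was listed in rrp4-2 alone, at 0.82 in the authors' deposited table. ARF19, the copies of ARF12 and the overlapping genes were named after their values were seen. Loci most like AFB2 and AFB3 are the 5 nearest. Tools were Python 3.11.15, numpy 2.4.6, scipy 1.17.1, pandas 2.3.3, Biopython 1.88 and matplotlib 3.10.9. Alternatives were a stricter threshold, a minimum fold, Bonferroni adjustment, correlated lines, a pooled standard error and, chosen after seeing the data, only lines whose name matches a label.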

Additional observations from a re-analysis of the deposited data

Results flagged for a closer look

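Differences between lines in the response of a receptor gene passed a test of the difference itself in 5 cases. In rrp4-2/urt1-1/heso1-4 minus urt1-1 they were -0.68 for AFB2 and -0.73 for AFB3 on the log2 scale. In rrp4urt1dcl2het minus urt1-1 they were -0.73 for AFB2 and -0.90 for AFB3. In rrp4urt1dcl2het minus rrp4urt1dcl2.B9 the difference was -0.62 for AFB3. All 5 are negative, so the first line named in each pair had the smaller rise, and the lines share their reference libraries. The 2 lines of the last pair are named for the same mutations.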

How the results depend on the processing

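The 18 receptor entries came to 16 at an adjusted p under 0.01, to 12 with an absolute log2 fold change of at least 1 as well, and to 12 with Bonferroni adjustment over all tested loci. TIR1 and AFB1 were lost under all 3 of these, and AFB2 and AFB3 in rrp4-2/urt1-1/heso1-4 and rrp4urt1dcl2het under the last 2. With only the lines whose name matches a label, chosen after seeing the data, 6 entries were left, by construction, all of AFB2 and AFB3 in the 3 such lines with urt1. Of the differences between lines, 5 passed in the main test, 8 with a correlation of 0.5 between lines, 5 with the median standard error of each locus, and 1 with Bonferroni adjustment, AFB3 in rrp4urt1dcl2het minus urt1-1. These alternatives leave each log2 value as it is, so none of them could reverse a direction. The entries of the other auxin and target lists fell to 85 at an adjusted p under 0.01, against 122.

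No paired analysis was possible because the authors' deposited table holds no values of single libraries; for the same reason leaving out each replicate was not run. Depth is unknown. The table lists only part of the loci that passed, so an unlisted gene is not shown to be unchanged and limits hold only where the listing is complete for that gene. Standard errors rest on the authors' model. The p-values measure the spread between the libraries as the authors fitted it. Reads of AFB3 and AFB1 cannot be told apart from those of the genes on the opposite strand.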
